A study of Mus musculus with 3 samples.

Results

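The Ifitm family genes Ifitm1, Ifitm2 and Ifitm3 encode interferon-induced transmembrane proteins, and they were followed here through the bone marrow stem and progenitor cells of Helios-deficient and wild-type mice. The members were taken by name, as 3 of the 31053 genes in the count matrix. The cells were LSK cells, bone marrow cells without lineage markers that carry Sca1 and Kit, which hold the blood stem cells and the multipotent progenitors. They came from 2 mice labelled Helios-deficient and 2 mice labelled wild-type, each mouse with its own hashtag antibody, pooled into 1 droplet run. Antibodies with oligonucleotide tags gave the surface levels of CD48, CD150, CD135 (Flt3) and CD41. The study's question is the role of Helios, an Ikaros family transcription factor encoded by Ikzf2, in these cells. The labels used here do not give the strain, age or sex of the mice, nor which part of Ikzf2 was deleted or in which cells.

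Of 4108 barcodes, 3470 are on the deposited list of kept cells. The Helios-deficient mice gave 557 and 824 cells with 5729987 and 8424677 UMIs, and the wild-type mice gave 1175 and 914 cells with 10317599 and 8364109 UMIs. The median UMI count per cell was 8670 and 8461 in Helios-deficient mice, against 7599 and 7627 in wild-type mice. Ikzf2 RNA stood at 73.6 and 82.7 CPM (UMIs per 1000000 UMIs of a mouse) in Helios-deficient mice, against 70.6 and 67.7 in wild-type mice. These are reads from transcript ends, so they check neither the deletion nor the hashtag labels. All 10 stem cell markers were detected over the kept cells of the 4 mice together. Their summed level was 446 and 479 CPM in Helios-deficient mice and 478 and 447 in wild-type mice. Among markers of other cell types, the B cell list varied widely between single mice, with a summed level of 73.6 and 1008 CPM in Helios-deficient mice and 4093 and 78.0 in wild-type mice. The myeloid list was higher in Helios-deficient mice, and its values stand beside the genotype comparison. In the B cell, T and NK cell and endothelial lists, Pax5, Cd3e and Cdh5 had no UMI in any kept cell. The other listed genes of these types were detected, 6 of 7, 5 of 6 and 4 of 5 in that order. The T and NK cell list summed to 239 and 237 CPM in Helios-deficient mice and 283 and 258 in wild-type mice. The endothelial list summed to 60.7 and 65.8 CPM in Helios-deficient mice and 71.3 and 58.6 in wild-type mice.

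IFITM proteins are small proteins of the plasma membrane and the endosomal membrane that hinder the entry of enveloped viruses into cells. Their genes are classical targets of type I interferon, whose receptors IFNAR1 and IFNAR2 act through the kinases JAK1 and TYK2 on interferon-stimulated response elements. Stem cells of several tissues also express them without added interferon. CD48 is a surface protein of the SLAM family that marks multipotent progenitors and is low on blood stem cells, while CD150, encoded by Slamf1, marks the stem cells among the CD48-low cells.

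The 3 genes lie side by side on chromosome 7 (GRCm38.p6, the patch release of mm10) within 55908 bases. Ifitm2 (ENSMUSG00000060591) lies at chr7:140954837-140959686, Ifitm1 (ENSMUSG00000025491) at chr7:140967429-140969827 and Ifitm3 (ENSMUSG00000025492) at chr7:141009590-141010744. The proximal promoters are shown because the results below turn on which members moved with interferon-induced genes. Each is the 120 bases before 1 transcript start in RefSeq (GRCm38.p6), read 5′ to 3′ on the gene's own strand. Capitals mark a match to the core of the interferon-stimulated response element, searched as GAAA, any 2 bases and GAAA again on both strands of the 300 bases around the start. The first 3 lines end at the base before the start, and the last line lies just after the start of Ifitm3.
Ifitm1, chr7:140967956-140968075, plus strand: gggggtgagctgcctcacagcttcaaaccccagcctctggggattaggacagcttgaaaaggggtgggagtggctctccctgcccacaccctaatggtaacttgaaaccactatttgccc
Ifitm2, chr7:140955962-140956081, minus strand: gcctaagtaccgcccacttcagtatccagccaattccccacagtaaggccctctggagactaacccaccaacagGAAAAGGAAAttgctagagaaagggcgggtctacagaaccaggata
Ifitm3, chr7:141010745-141010864, minus strand: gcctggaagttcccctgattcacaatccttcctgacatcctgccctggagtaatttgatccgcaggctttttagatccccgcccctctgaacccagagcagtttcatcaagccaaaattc
Ifitm3 after its start, chr7:141010713-141010742, minus strand: GAAAAGGAAActtctgaGAAACCGAAActg

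The window of Ifitm2 held 1 match, which began 46 bases before the start. The window of Ifitm3 held 2 matches, at bases 3 and 20 counted from the start. The window of Ifitm1 held none of these letters. The first match of Ifitm2 and of Ifitm3 had the same 10 letters, and 16 of the 30 bases from there on were identical. Of 32851 promoter windows of the same length, 3.44% held such a match. The gamma-activated site TTCNNNGAA, searched the same way, was found in the window of Ifitm3 only among the members, at base 14 and overlapping the second match, and in 8.30% of all windows. GGGAA, the core letters bound by Ikaros family factors, occurred in the windows of all 3 members and in 62.7% of all windows. A match describes letters and says nothing of binding in these cells.

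All 3 genes were abundant and widely detected in LSK cells. Ifitm1 had 39280 UMIs over the kept cells, Ifitm2 had 33064 and Ifitm3 had 35112. At least 1 UMI was found in 96.3% of cells for Ifitm1, in 99.1% for Ifitm2 and in 99.05% for Ifitm3. The other genes of that name were near 0: Ifitm6 had 47 UMIs, Ifitm5 had 9, Ifitm10 had 2 and Ifitm7, on chromosome 16, had 165. The members are close paralogs, and how reads that match several of them were counted is not stated, so part of the signal could be split or lost between them.

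The first comparison asked whether the loss of Helios changed these genes over all LSK cells. Ifitm3 was higher in Helios-deficient mice and passed the test, whereas Ifitm1 differed more but varied between mice and did not pass, and Ifitm2 differed least. Ifitm3 stood at 1246 and 1261 in Helios-deficient mice, against 985 and 860 in wild-type mice. The Helios-deficient mice lay close together, both above both wild-type mice. The means were 1254 ± 10.0 CPM in Helios-deficient mice and 922 ± 88.2 CPM in wild-type mice (SD, n = 2 each), a log2 difference of 0.44 ± 0.06 (SE), or 1.36-fold (adjusted p = 2.7e-04, edgeR quasi-likelihood test). The call held under all 13 alternatives, at log2 0.35 to 0.54.

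Ifitm1 stood at 1677 and 1315 CPM in Helios-deficient mice, against 1062 and 913 CPM in wild-type mice. The groups did not overlap, but the Helios-deficient mice lay far apart. The means were 1496 ± 256 CPM in Helios-deficient mice and 987 ± 105 CPM in wild-type mice (SD, n = 2 each), a log2 fold change of 0.60 ± 0.19 (SE) that did not pass (adjusted p = 0.54, edgeR). With any 1 mouse left out it did pass, at log2 0.41 to 0.77, and it did so in a fit without edgeR's robust option, at 0.60. In each fit with 1 mouse left out, the lone mouse of a genotype is assumed to vary like the others.

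Ifitm2 stood at 1132 and 1011 CPM in Helios-deficient mice, against 985 and 944 CPM in wild-type mice. The lower Helios-deficient mouse lay just above the higher wild-type mouse. The log2 fold change was 0.15 ± 0.05 (SE) and did not pass (adjusted p = 0.29, edgeR). It passed without Helios-deficient mouse 2, at 0.23. Of 11592 genes tested, 0.794% were called in either direction and 0.362% were called higher, and 1 of the 3 members was called. That count of called genes moved widely with the mice, to 306 without Helios-deficient mouse 1 and 563 without Helios-deficient mouse 2, against 92 with all 4. In 19.9% of tested genes both Helios-deficient mice lay above both wild-type mice, as they did for all 3 members.

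**Figure D1:**
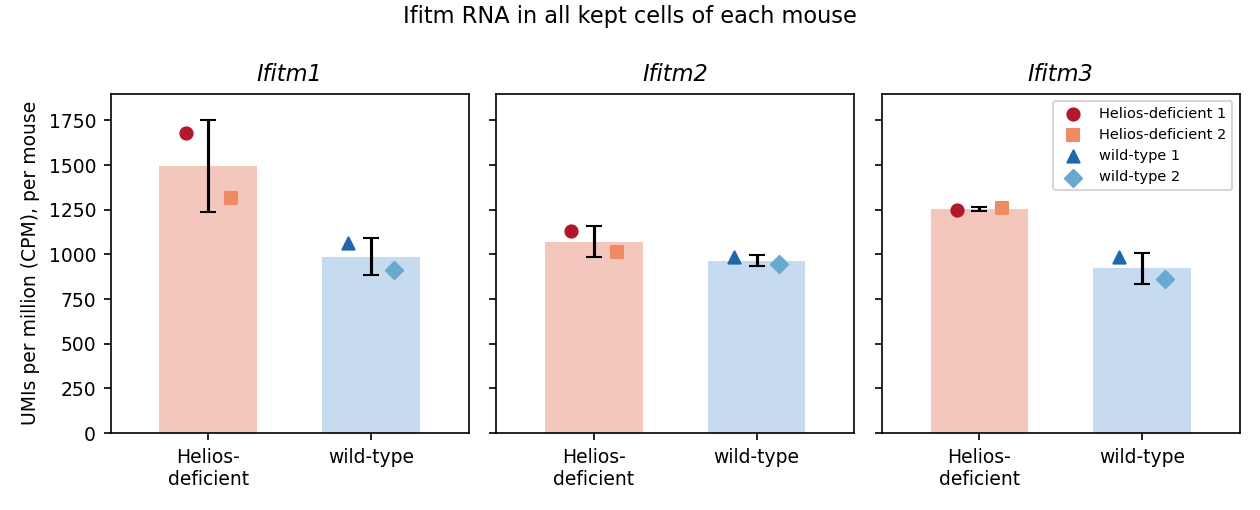
Level of each member (CPM, vertical axis) by genotype. Points are mice, bars are means and whiskers are the SD of 2 mice. Ifitm3 sits at 1246 and 1261 in Helios-deficient mice and at 985 and 860 in wild-type mice, while the Helios-deficient mice spread more for Ifitm1.

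The mice also differed in make-up. The summed level of all 9 myeloid markers was 1691 and 1629 CPM in Helios-deficient mice, against 1139 and 915 CPM in wild-type mice. The lymphoid list ran the other way, at 609 and 711 CPM in Helios-deficient mice and 745 and 843 CPM in wild-type mice, and so did the T and NK cell and the red cell lists. The shares that follow are of each mouse's own cells. The highest quintile of a stem cell gene score over all mice held 22.3% and 25.1% of cells in Helios-deficient mice, against 19.1% and 15.2% in wild-type mice. The lowest quintile of an interferon-induced gene score held 17.4% and 13.96% in Helios-deficient mice, against 20.8% and 26.0% in wild-type mice. At the other end of each score the genotypes overlapped. The lowest stem score quintile held 21.2% and 18.2% of cells in Helios-deficient mice, against 19.6% and 21.4% in wild-type mice. The highest interferon score quintile held 19.0% and 25.0% in Helios-deficient mice, against 19.7% and 16.5% in wild-type mice. The part of these marker and score differences in the Ifitm values was not tested. The mean CD48 tag count was 122 and 125 in Helios-deficient mice, against 133 and 139 in wild-type mice. The highest quintile of a cell cycle score over all mice held 21.4% and 24.5% of cells in Helios-deficient mice, against 17.9% and 17.8% in wild-type mice. With equal numbers of cells from each CD48 quintile in every mouse, the log2 fold change of Ifitm3 was 0.39. With equal numbers from each cluster it was 0.49, and without the cells of the highest interferon score quintile it was 0.41. Without the 83 cells that held 3 or more markers of 1 other cell type, it was 0.45. Ifitm3 passed in each of these.

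The second comparison followed the members along the surface level of CD48. Cells of each mouse were ranked by their CD48 tag count and split into quintiles, with median tag counts of 55, 76, 111, 160 and 237. The means of Ifitm1 and Ifitm3 over 4 mice were highest where CD48 was lowest and fell towards CD48-high cells, while Ifitm2 differed less. Ifitm3 in the CD48-lowest quintile stood at 1649, 1765, 1381 and 1248 CPM in Helios-deficient mice 1 and 2 and wild-type mice 1 and 2. In the CD48-highest quintile it stood at 973, 1026, 797 and 709 CPM in the same mice. The ends did not overlap in any mouse or between mice, and each of the 4 steps between quintiles went down in 4 of 4 mice.

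The mean of Ifitm3 over 4 mice was 1511, 1299, 1059, 958 and 876 CPM from the lowest to the highest CD48 quintile. Per mouse, the log2 ratio of the lowest over the highest quintile was 0.76, 0.78, 0.79 and 0.82, with a mean of 0.79 ± 0.02 (SD, n = 4 mice). In a fit with the mouse as block, the log2 fold change was 0.71 ± 0.03 (SE; adjusted p = 6.6e-28, edgeR, n = 4 mice). Such small p-values rest on a spread shared across genes between sums from the same mouse, so the values per mouse are the better guide to the error.

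Ifitm1 in the CD48-lowest quintile stood at 2078 and 2073 CPM in Helios-deficient mice and 1710 and 1265 CPM in wild-type mice. In the CD48-highest quintile it stood at 1355 and 959 CPM in Helios-deficient mice and 702 and 663 CPM in wild-type mice. The ends overlapped between mice, since Helios-deficient mouse 1 kept more Ifitm1 in its CD48-highest cells than wild-type mouse 2 had in its CD48-lowest cells. Per mouse the log2 ratio was 0.62, 1.11, 1.28 and 0.93, positive in 4 of 4 mice. The step from quintile 1 to quintile 2 went down in 3 of 4 mice, and each later step in 4 of 4. Helios-deficient mouse 1 was the exception, at 2078 CPM in quintile 1 and 2118 CPM in quintile 2. The log2 fold change was 0.91 ± 0.14 (SE; adjusted p = 0.020, edgeR), and the call was lost when Helios-deficient mouse 2 (0.87) or wild-type mouse 2 (0.92) was left out and when the mouse block was dropped (0.87).

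Ifitm2 averaged 1124 ± 87.7 CPM in the CD48-lowest quintile and 943 ± 70.7 CPM in the CD48-highest quintile (SD, n = 4 mice). The log2 fold change was 0.17 ± 0.04 (SE; adjusted p = 1.3e-04, edgeR) and passed in 9 of 10 alternatives, the exception being DESeq2 at 0.15. All 3 members were thus called higher at the CD48-low end, where 36.1% of 9120 tested genes were called in either direction and 17.5% were called higher. CD48-low cells also held fewer UMIs, a median of 6358 in the lowest quintile and 13181 in the highest. With every cell thinned to 3000 UMIs, the log2 fold changes were 1.12 for Ifitm1, 0.32 for Ifitm2 and 0.82 for Ifitm3, and all passed.

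**Figure D2:**
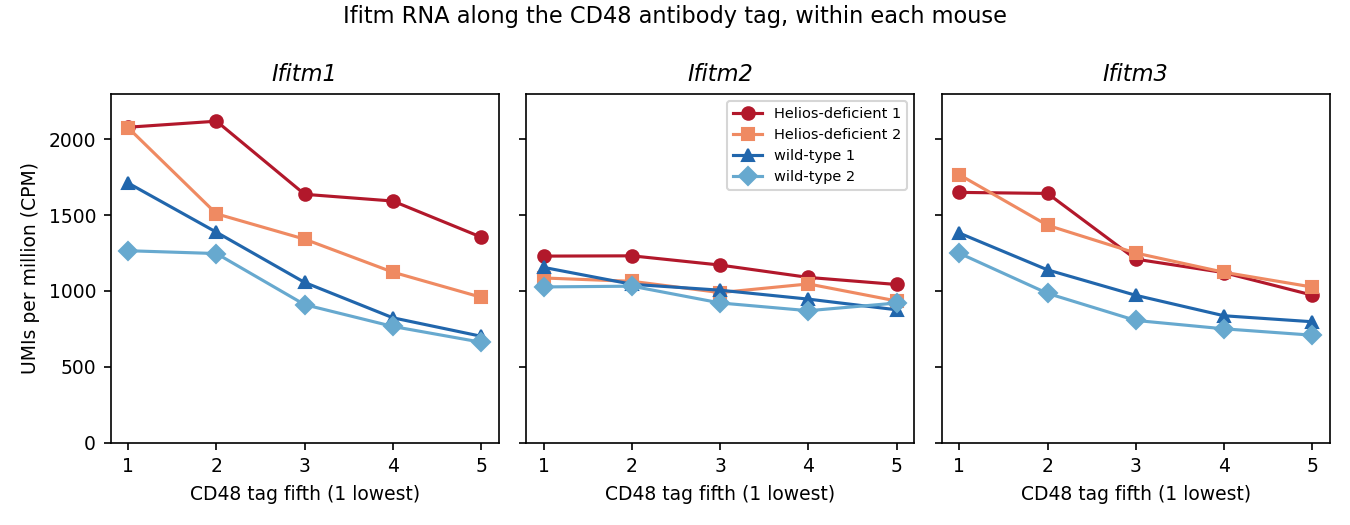
Level of each member (CPM, vertical axis) in quintiles of the CD48 antibody tag, 1 lowest and 5 highest, with 1 line per mouse. Ifitm3 falls at each step in every mouse and its 2 Helios-deficient lines stay above its 2 wild-type lines, while Ifitm2 stays between 870 and 1231 CPM.

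Combining CD48 with CD150 gave corner gates from tertiles of both tags within each mouse. The CD48-low CD150-high gate corresponds to the usual surface definition of stem cells and the CD48-high CD150-low gate to multipotent progenitors, here as tertiles of a tag and not as sorted gates. Ifitm3 stood at 1814 and 1612 CPM in Helios-deficient mice and 1506 and 1254 CPM in wild-type mice in the stem gate. In the progenitor gate it stood at 1003 and 1003 CPM in Helios-deficient mice and 724 and 707 CPM in wild-type mice. The gates did not overlap. The log2 fold change was 0.83 ± 0.05 (SE; adjusted p = 5.1e-27, edgeR).

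Ifitm2 was also higher in the stem gate, by log2 0.23 ± 0.05 (SE; adjusted p = 3.1e-05, edgeR). The Ifitm1 difference of 0.80 ± 0.16 (SE) fell just short of the threshold (adjusted p = 0.050, edgeR) and passed under 6 of 9 alternatives, among them those that left out Helios-deficient mouse 2 (0.89) or wild-type mouse 1 (0.67). In this comparison 24% of 7546 tested genes were called, and 2 of 3 members. Within CD48-low cells, Ifitm3 averaged 1546 CPM in the CD150-high and 1389 CPM in the CD150-low gate, higher in the first in every mouse. Ifitm1 averaged 1674 CPM in the CD150-high and 1842 CPM in the CD150-low gate, but its direction differed between genotypes. In Helios-deficient mice it stood at 1998 and 1564 CPM in the CD150-high gate, against 2471 and 2027.5 CPM in the CD150-low gate. In wild-type mice it stood at 1766 and 1370 CPM in the CD150-high gate, against 1702 and 1168 CPM in the CD150-low gate. These differences were not tested within CD48-low cells.

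Over all cells, the CD150 tag went with small and opposite differences. Ifitm3 was higher in the CD150-highest than in the CD150-lowest quintile, by log2 0.17 ± 0.03 (SE; adjusted p = 1.8e-05, edgeR), in 4 of 4 mice. Ifitm1 was lower there, with a log2 difference of -0.14 ± 0.03 (SE; adjusted p = 0.0016, edgeR), in 3 of 4 mice. For Ifitm2 the value was 0.06 and did not pass (adjusted p = 0.32, edgeR). The share of all tested genes called along CD150 was 8.89%, and the Ifitm1 call was lost without Helios-deficient mouse 1 (-0.10) and without Helios-deficient mouse 2 (-0.11). With thinned cells the Ifitm1 value was 0.01, and both calls were lost with DESeq2 (-0.13 for Ifitm1 and 0.17 for Ifitm3).

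Along CD41, a marker of megakaryocyte priming, Ifitm1 fell. It stood at 1309 and 1014 CPM in Helios-deficient mice and 1013 and 766 CPM in wild-type mice in the CD41-highest quintile. In the CD41-lowest quintile it stood at 1761 and 1423 CPM in Helios-deficient mice and 1186 and 985 CPM in wild-type mice. It was lower at the CD41-high end in 4 of 4 mice, with a log2 difference of -0.39 ± 0.04 (SE; adjusted p = 1.7e-14, edgeR). Ifitm2 and Ifitm3 had values of 0.04 and -0.05 and did not pass, in a comparison where 10.5% of genes were called.

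Along CD135, the Flt3 receptor, high on lymphoid-primed progenitors, the log2 fold change of the lowest over the highest quintile was 0.13 for Ifitm1, 0.12 for Ifitm2 and 0.13 for Ifitm3. The Ifitm1 and Ifitm3 values passed (adjusted p = 0.027 and 0.033, edgeR), with 2.07% of genes called. These calls were lost with most single mice left out. For Ifitm1 this held without Helios-deficient mouse 1 (0.15), Helios-deficient mouse 2 (0.10) or wild-type mouse 1 (0.11). For Ifitm3 it held without Helios-deficient mouse 1 (0.15), wild-type mouse 1 (0.13) or wild-type mouse 2 (0.12). The Ifitm2 value passed without Helios-deficient mouse 2 (0.16). When each tag was taken as its share of a cell's 4 tags, so that CD48 enters every share, several directions turned. Ifitm1 then had 0.76 along CD150, 0.38 along CD41 and -0.93 along CD135, and Ifitm3 had 0.38 along CD41 and -0.45 along CD135.

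RNA-based scores placed the members along 3 further gradients. The stem score averaged 24 stem cell genes, none of them an Ifitm gene, and comes from the same library as the members. In the highest stem score quintile Ifitm3 stood at 1902 and 1755 CPM in Helios-deficient mice and 1434 and 1233 CPM in wild-type mice. In the lowest quintile it stood at 887 and 913 CPM in Helios-deficient mice and 729 and 606 CPM in wild-type mice. The ends did not overlap, and the log2 fold change was 0.91 ± 0.04 (SE; adjusted p = 6.0e-51, edgeR).

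Ifitm1 differed more between the same ends, with a log2 difference of 1.20 ± 0.10 (SE; adjusted p = 7.0e-04, edgeR) and means of 1946 ± 436 CPM in the highest and 799 ± 222 CPM in the lowest quintile (SD, n = 4 mice). Ifitm2 differed by 0.27 ± 0.04 (SE; adjusted p = 2.7e-09, edgeR). Along this score 42.4% of genes were called, and all 3 members were called higher under all 8 alternatives. Ifitm1 and Ifitm3 rose at every one of the 4 steps in 4 of 4 mice.

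The interferon score averaged 36 interferon-induced genes without the Ifitm family, such as Ifit1, Isg15 and Rsad2. In the highest interferon score quintile Ifitm3 stood at 2015 and 1912 CPM in Helios-deficient mice and 1455 and 1138 CPM in wild-type mice. In the lowest quintile it stood at 903 and 941 CPM in Helios-deficient mice and 763 and 708 CPM in wild-type mice. Ifitm3 was higher in 4 of 4 mice, with no overlap and a log2 difference of 0.90 ± 0.05 (SE; adjusted p = 1.2e-11, edgeR).

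Ifitm1 rose less along the interferon score, by 0.61 ± 0.07 (SE; adjusted p = 2.4e-04, edgeR). Ifitm2 had a value of -0.01 ± 0.05 (SE; adjusted p = 0.93, edgeR), with means of 1024 ± 152 CPM in the highest and 987 ± 76.6 CPM in the lowest quintile (SD, n = 4 mice). Its log2 ratio was 0.16 and 0.14 in Helios-deficient mice, against 0.02 and -0.14 in wild-type mice. Along this score 19.6% of genes were called, and 2 of 3 members. In the windows searched above, the letters of the response element were present for Ifitm2, which did not pass along this score, and not for Ifitm1, which did. Only 1 transcript start of each member was searched, and the spans of Ifitm1 and Ifitm2 reach further on the 5′ side than these windows.

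The cell cycle score averaged 32 genes of DNA replication and mitosis. Ifitm1 had its largest fitted difference here, although in wild-type mouse 1 its log2 ratio was 1.21 here and 1.58 along the stem score. In the lowest cell cycle quintile it stood at 2769 and 2151 CPM in Helios-deficient mice and 1459 and 1406 CPM in wild-type mice. In the highest quintile it stood at 938 and 756 CPM in Helios-deficient mice and 630 and 541 CPM in wild-type mice. The ends did not overlap, and the log2 fold change was 1.35 ± 0.04 (SE; adjusted p = 3.8e-178, edgeR).

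Ifitm3 was likewise higher in the lowest cell cycle quintile, by 0.75 ± 0.04 (SE; adjusted p = 4.2e-65, edgeR). Ifitm2 differed by 0.12 ± 0.04 (SE; adjusted p = 0.0079, edgeR), and its call was lost without Helios-deficient mouse 1 (0.06), without Helios-deficient mouse 2 (0.08) and with DESeq2 (0.07). Of all tested genes 50% were called along this score, so the calls of the 3 members are not unusual there. Median depth ran with the score, at 5940.5 UMIs per cell in the lowest and 14328 in the highest quintile, and with cells thinned to 3000 UMIs the values were 1.42, 0.18 and 0.74 for Ifitm1, Ifitm2 and Ifitm3.

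**Figure D3:**
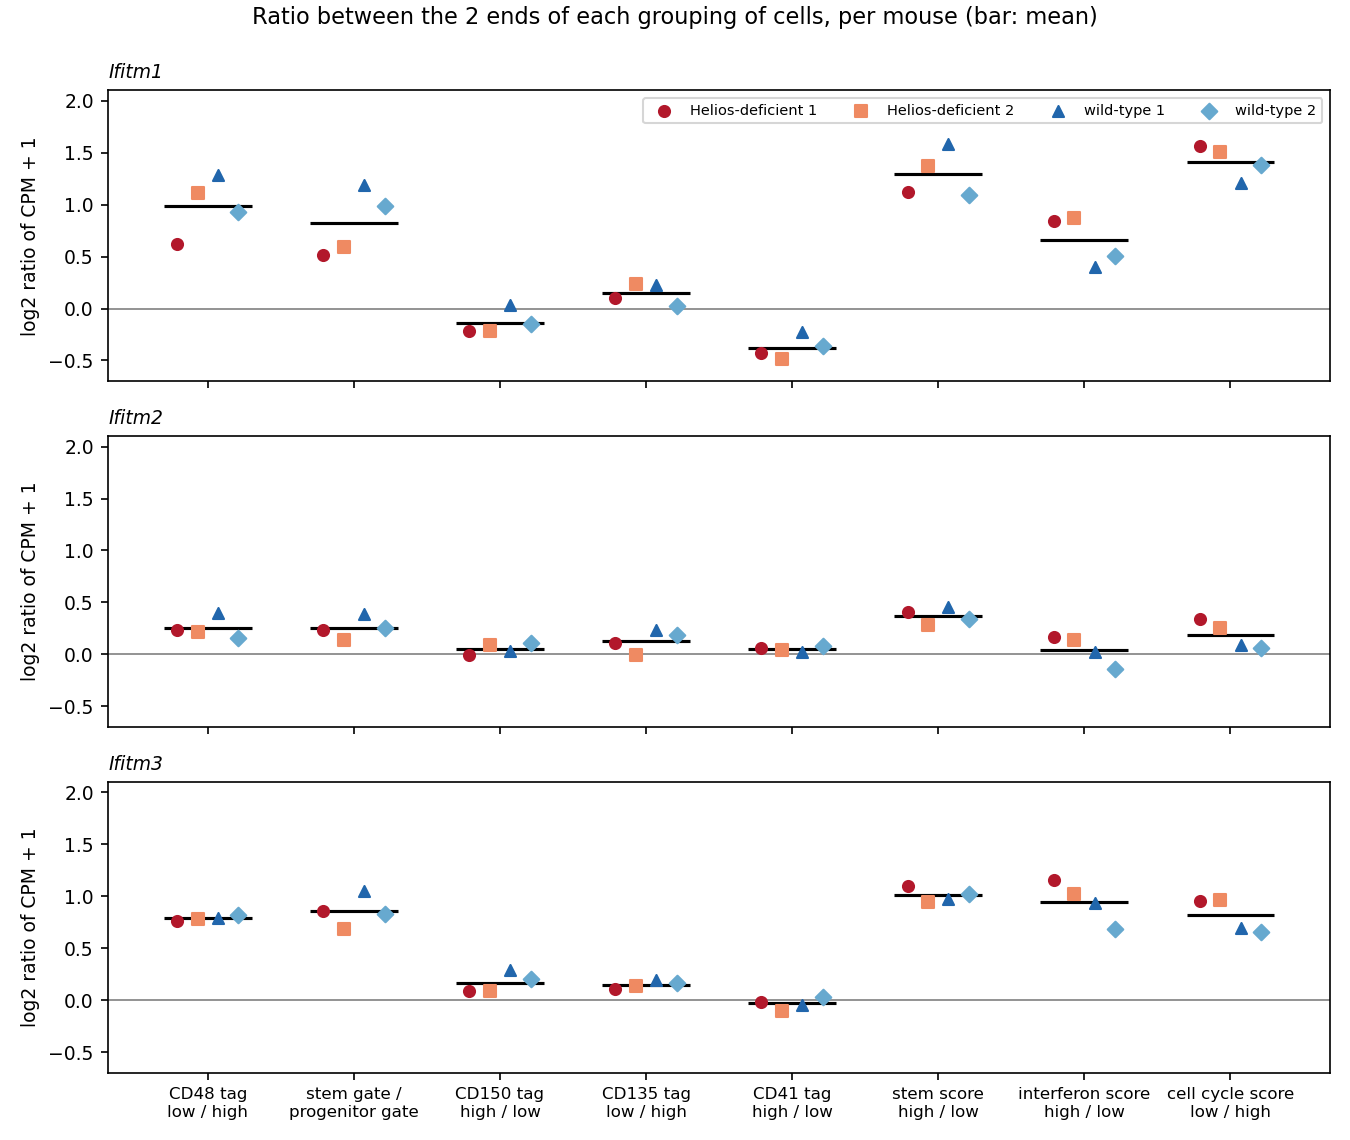
Log2 ratio of CPM + 1 between the 2 ends of each grouping of cells (vertical axis), 1 point per mouse and a bar at the mean of 4 mice, for the 4 tags, the corner gates and the 3 scores. Ifitm2 lies between -0.14 and 0.46 in every mouse. The mean of Ifitm3 is 1.01 along the stem score and 0.95 along the interferon score, where mice range from 0.68 to 1.16. The mean of Ifitm1 is highest along the cell cycle score, and Ifitm1 is below 0 along CD41 in every mouse.

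The gradients share cells, so pairs of them were crossed at the median of each mouse. Among cells above the median stem score, Ifitm1 averaged 1035 ± 232 CPM in the more cycling cells and 2063 ± 502 CPM in the less cycling cells (SD, n = 4 mice). Among cells below the median stem score, it averaged 877 ± 267 CPM in the more cycling cells and 1462 ± 551 CPM in the less cycling cells. The less cycling cells were higher in every mouse on both sides. Ifitm1 thus differed with the cell cycle on either side of the stem score, and with the stem score on either side of the cell cycle in the means. Crossed with CD48, Ifitm1 among the more cycling cells averaged 983 ± 171 CPM in CD48-low and 908 ± 285 CPM in CD48-high cells. Helios-deficient mouse 1 ran the other way there, at 1185.5 against 1299 CPM. Among the less cycling cells, Ifitm1 averaged 2085 ± 489 CPM in CD48-low and 1434 ± 579 CPM in CD48-high cells, and CD48-low cells were higher in every mouse.

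Ifitm3 differed with both the stem and the interferon score. It averaged 1479 ± 307 CPM where both scores were high and 749 ± 145 CPM where both were low (SD, n = 4 mice). With only the stem score high it averaged 1147 ± 170 CPM, and with only the interferon score high 1131.5 ± 251 CPM. These mixed groups lay between the others in each of the 4 mice. No test was made of these crossed groups.

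Clusters of cells gave the widest range for Ifitm1 and the narrowest for Ifitm2. The cells were clustered without Ifitm genes, and 8 clusters resulted. From markers they were named lymphoid-primed-like (644 cells, led by Dntt), myeloid-primed-like (484 cells, led by Elane) and erythroid-primed-like (193 cells, led by Car1). Elane and Ctsg were the myeloid markers among the first 10 genes of the second of these, and the other 8 were cell cycle genes such as Ube2c and Mki67. The erythroid-primed-like cluster held 5 enriched erythroid and 6 enriched megakaryocyte markers, Pf4 among the second. Clusters without a name were cluster 1 (634 cells, led by Igkc, Ighm and Cd74, with 6 enriched stem cell markers), cluster 2 (618 cells, led by Ifit1 and Rsad2), cluster 4 (465 cells, led by Ung and Hells), cluster 5 (282 cells, led by Notch2) and cluster 7 (150 cells, led by Hist1h2bc).

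Ifitm1 was highest in cluster 1, at 3002 and 2643 CPM in Helios-deficient mice and 2229 and 1765 CPM in wild-type mice. It was lowest in the erythroid-primed-like cluster, at 335 and 453 CPM in Helios-deficient mice and 372 and 306 CPM in wild-type mice. The cluster means over 4 mice differed 6.57-fold. All 4 mice of cluster 1 lay above all 4 mice of the erythroid-primed-like cluster, and there alone the genotypes overlapped for Ifitm1. In between, the myeloid-primed-like cluster averaged 744 ± 229 CPM and the lymphoid-primed-like cluster 1055.5 ± 300.9 CPM (SD, n = 4 mice). Their ranges over mice overlapped, although the lymphoid-primed-like cluster was higher within each of the 4 mice.

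Ifitm3 was also highest in cluster 1, at 1881 and 1982 CPM in Helios-deficient mice and 1416 and 1285 CPM in wild-type mice. Cluster 2, whose leading genes are interferon-induced, followed at 1664 and 1517 CPM in Helios-deficient mice and 1246 and 926 CPM in wild-type mice. The lowest was the myeloid-primed-like cluster, at 894 and 945 CPM in Helios-deficient mice and 738 and 680 CPM in wild-type mice. The cluster means differed 2.02-fold, and the erythroid-primed-like cluster was close to the lowest at 881 ± 74.7 CPM (SD, n = 4 mice). Ifitm2 ranged only 1.29-fold, between 870 CPM in the lymphoid-primed-like cluster and 1119 CPM in cluster 1.

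**Figure D4:**
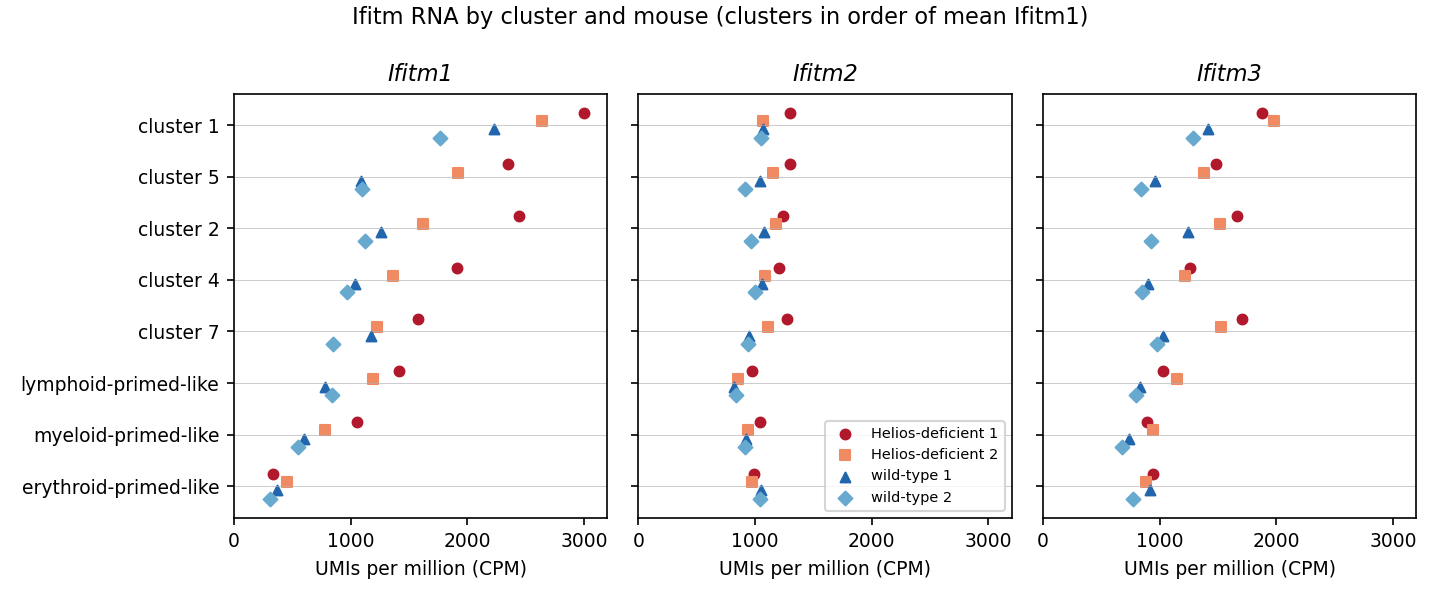
Level of each member (CPM, horizontal axis) in 8 clusters, in the order of mean Ifitm1, with 1 point per mouse. Ifitm1 runs from cluster 1 at 1765 to 3002 CPM down to the erythroid-primed-like cluster at 306 to 453 CPM, while Ifitm2 stays in a narrow band.

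The same contrast showed in the shares of cells. After thinning to 3000 UMIs, Ifitm1 was found in 59.4% and 53.1% of erythroid-primed-like cells in Helios-deficient mice and in 50% and 37.3% in wild-type mice. Without thinning the shares were 71.9% and 85.9% in Helios-deficient mice and 76.1% and 86.3% in wild-type mice. In cluster 1 the thinned shares were 100% and 98.2% in Helios-deficient mice and 96.7% and 93.8% in wild-type mice. For Ifitm2 and Ifitm3 the thinned shares in erythroid-primed-like cells were 93.5% to 96.1% and 82.8% to 91.3%. No cluster here is known to lack these genes, so free RNA cannot be read from another cell type.

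Between single cells Ifitm1 was spread more unevenly than Ifitm2. At 3000 UMIs per cell, 12.7% of cells had no Ifitm1 UMI and 8.69% had 10 or more, with a maximum of 57. For Ifitm2 the shares were 6.31% and 0.319%, with a maximum of 11. For Ifitm3 they were 8.08% and 2.90%, with a maximum of 24. The 10% of cells with most UMIs held 29.8% of Ifitm1, 22.1% of Ifitm2 and 26.8% of Ifitm3.

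Across single thinned cells within a mouse (556 to 1169 cells), the Spearman correlation of Ifitm1 with Ifitm3 was 0.24 to 0.39 over the 4 mice. It was 0.12 to 0.18 for Ifitm1 with Ifitm2 and 0.11 to 0.14 for Ifitm2 with Ifitm3. With the CD48 tag it was -0.36 to -0.22 for Ifitm1, -0.17 to -0.09 for Ifitm2 and -0.30 to -0.28 for Ifitm3. These cells share a library and few UMIs per gene, so the values are descriptions.

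The difference between genotypes was then followed along the CD48 gradient and in the corner gates. For Ifitm3 it was present in all 5 quintiles. From the lowest to the highest CD48 quintile, the log2 fold change of Helios-deficient over wild-type mice was 0.36, 0.51, 0.48, 0.48 and 0.43, each with an SE of 0.06 to 0.07. The adjusted p was 2.8e-05, 6.7e-05, 8.9e-04, 7.3e-05 and 0.0024 (edgeR), while 0.445%, 0.768%, 0.455%, 0.656% and 0.442% of tested genes were called. Without wild-type mouse 2 the value in the highest quintile was 0.35 and no longer passed.

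No change of the Ifitm3 difference along CD48 was detected, with an interaction of -0.07 ± 0.06 (SE; adjusted p = 0.87, edgeR). For Ifitm1 the 5 values were 0.46, 0.43, 0.60, 0.75 and 0.78, of which that of the middle quintile passed (adjusted p = 0.036, edgeR). Leaving out 1 mouse at a time gave 0.27 to 0.69, 0.19 to 0.67, 0.45 to 0.75, 0.49 to 0.98 and 0.52 to 1.0 in those quintiles, and the call changed in the first quintile without wild-type mouse 1 (0.69), in the second without Helios-deficient mouse 2 (0.67) or wild-type mouse 2 (0.37), in quintile 4 without any 1 mouse, and in quintile 5 without any 1 mouse except wild-type mouse 2. The interaction for Ifitm1 was -0.29 ± 0.29 (SE; adjusted p = 0.94, edgeR) and for Ifitm2 -0.10 ± 0.06 (SE; adjusted p = 0.78, edgeR). Called genes made up 0.43% of all genes in this interaction, and no member was among them.

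In the corner gates, Ifitm3 was higher in Helios-deficient mice by 0.52 ± 0.07 (SE; adjusted p = 9.3e-09, edgeR) among CD48-low CD150-low cells. Among CD48-high CD150-low cells the difference was 0.50 ± 0.08 (SE; adjusted p = 0.0039, edgeR). In the stem gate it was 0.28 ± 0.08 (SE) and did not pass (adjusted p = 0.44, edgeR), although both Helios-deficient mice lay above both wild-type mice. The stem gate held 59 to 124 cells per mouse, and 0.0812% of genes were called there. Among CD48-high CD150-high cells the value of 0.31 passed (adjusted p = 0.032, edgeR), with 0.482% of genes called, but not when Helios-deficient mouse 2 (0.22) or wild-type mouse 2 (0.23) was left out. The shares called were 0.251% among CD48-low CD150-low and 0.101% among CD48-high CD150-low cells.

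Ifitm1 behaved differently between the stem and the progenitor gate. In the stem gate it stood at 1998 and 1564 CPM in Helios-deficient mice, against 1766 and 1370 CPM in wild-type mice, and the genotypes overlapped. In the progenitor gate it stood at 1397 and 1035 CPM in Helios-deficient mice, against 773 and 688 CPM in wild-type mice, with no overlap. The genotype difference was 0.15 in the stem gate (adjusted p = 0.98, edgeR) and 0.74 in the progenitor gate (adjusted p = 0.0031, edgeR).

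The test of that change itself gave an interaction of -0.57 ± 0.08 (SE; adjusted p = 1.0e-05, edgeR), in a fit where 0.0479% of 8349 genes were called. The value was -0.49 to -0.68 with single mice left out and passed in each. It did not pass with DESeq2 (-0.57), with thinned cells (-0.42) or with gates from quintiles (-0.28). For Ifitm2 and Ifitm3 the interaction was -0.16 and -0.21 and did not pass (adjusted p = 1.0 and 0.97, edgeR).

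Along the interferon score, the Ifitm1 ratio of the highest over the lowest quintile was larger in Helios-deficient mice, at log2 0.85 and 0.88, than in wild-type mice, at 0.40 and 0.51. The interaction was 0.38 ± 0.08 (SE; adjusted p = 0.024, edgeR), with 0.146% of genes called. It did not pass without Helios-deficient mouse 1 (0.40) or Helios-deficient mouse 2 (0.35), with DESeq2 (0.38), without the robust option (0.38) or with thinned cells (0.29). The corresponding value for Ifitm3 was 0.25 ± 0.08 (SE; adjusted p = 0.47, edgeR), which passed without wild-type mouse 1 (0.37). Along the stem score the interaction was -0.10, -0.06 and 0.02 for Ifitm1, Ifitm2 and Ifitm3 and did not pass (adjusted p = 0.96, 0.94 and 0.99, edgeR), with 0.382% of genes called.

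**Figure D5:**
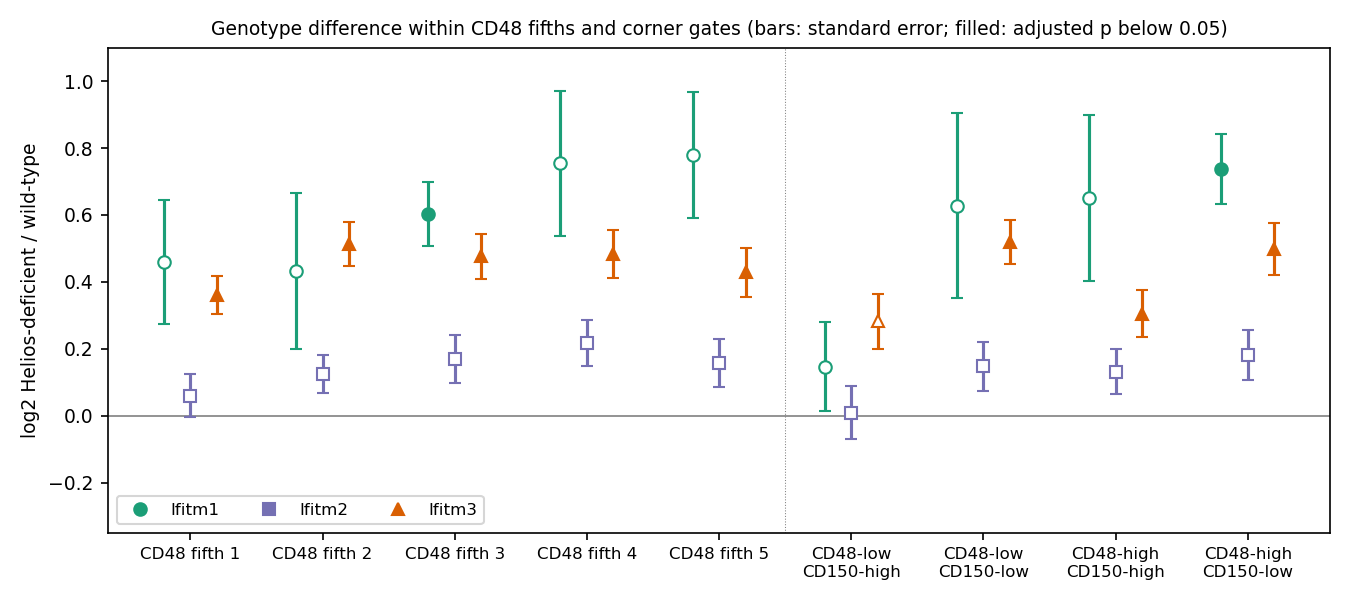
Log2 fold change of Helios-deficient over wild-type mice (vertical axis, with SE) for each member within 5 CD48 quintiles and 4 corner gates. Filled points have an adjusted p below 0.05. Ifitm3 lies between 0.28 and 0.52 and is filled everywhere except in the CD48-low CD150-high gate, where Ifitm1 is at its lowest, 0.15.

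The 4 tags, the 3 scores, the corner gates, the clusters and the median splits, which also crossed CD48 with the cell cycle and interferon scores, gave 63 bins of cells that share cells with each other. Both Helios-deficient mice lay above both wild-type mice in 62 bins for Ifitm3, in 59 for Ifitm1 and in 40 for Ifitm2. The bins divide the cells of the same 4 mice again and again, so these counts are not independent. Over all kept cells 19.9% of tested genes had this order, and the share of all genes within the bins was not computed. The exception for Ifitm3 was the erythroid-primed-like cluster, at 941 and 886 CPM in Helios-deficient mice and 921 and 774 CPM in wild-type mice. In the same cluster Ifitm2 was the other way round, at 994.6 and 976 CPM in Helios-deficient mice and 1051 and 1039 CPM in wild-type mice.

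Other interferon-induced genes did not pass between genotypes. Of 36 listed genes, 0 were called by edgeR, where 0.794% of all genes were called, 28 had a positive value and the median log2 fold change was 0.10, against -0.00 over all genes tested. DESeq2 also called 0 of 36, and at an unadjusted p below 0.05 edgeR had 5 higher and 0 lower. Over all 11592 genes tested by edgeR, 1202 lay below it in either direction. The smallest p-values among the 36 listed genes belonged to Ifit3b, Bst2, Gbp7 and Igtp. Bst2, which encodes the virus tether tetherin, stood at 203 and 190 CPM in Helios-deficient mice, against 172 and 166 CPM in wild-type mice (log2 0.22, adjusted p = 0.15, edgeR). Gbp7 and Igtp, which encode interferon-induced GTPases, had values of 0.27 each, and Ifit3b, at 2.09 and 4.15 CPM in Helios-deficient mice and 1.36 and 0.359 CPM in wild-type mice, had 1.84.

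Along CD48, 13 of 32 tested interferon-induced genes were higher and 3 lower in CD48-low cells, where 17.5% of all genes were higher and 36.1% were called in either direction, with a median of 0.35 against 0.01 over all genes. Ifit1, an RNA-binding antiviral protein, averaged 35.5 ± 12.1 CPM in the CD48-lowest and 13.0 ± 9.92 CPM in the CD48-highest quintile (SD, n = 4 mice; log2 1.32, adjusted p = 6.3e-08, edgeR). Gbp7 was higher by 0.69. Ifi27l2a and Ly6e were lower, by log2 values of -1.61 and -0.23.

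Receptors and signalling genes of the interferon and gp130 pathways showed no call between genotypes in 24 tested genes, by edgeR or DESeq2, with a median of -0.07. At an unadjusted p below 0.05, 0 were higher and 3 lower by edgeR, against 1202 of all 11592 genes in either direction. The smallest p-values in this list belonged to Il10rb, Ifnar2, Irf3 and Ifnar1, all with lower values in Helios-deficient mice. Ifnar1, a chain of the type I interferon receptor, stood at 23.2 and 29.6 CPM in Helios-deficient mice, against 30.4 and 32.3 CPM in wild-type mice (log2 -0.23, adjusted p = 0.55, edgeR). Ifnar2, its partner chain, had a value of -0.20 (adjusted p = 0.38, edgeR).

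Along CD48, 6 of these 24 genes were higher and 4 lower in CD48-low cells, near the 36.1% called over all genes. Irf2, which encodes a factor that represses interferon-induced genes, was higher there by 0.71, at 139 ± 13.1 CPM in the CD48-lowest and 78.6 ± 6.37 CPM in the CD48-highest quintile (SD, n = 4 mice; adjusted p = 4.4e-10, edgeR). Irf8, a factor of monocyte and dendritic cell fate, was lower by a log2 value of -3.87. The receptor chains Ifnar2 and Il10rb were lower too, with values of -0.57 and -0.76.

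Of 24 stem cell genes, 2 rose and 1 fell in Helios-deficient mice by edgeR, with a median of 0.19, where 0.794% of all genes were called. DESeq2 called 1 of these 24, against 34 of all 13112 genes. Esam, an adhesion molecule of stem cells and endothelium, stood at 51.1 and 51.6 CPM in Helios-deficient mice, against 38.9 and 36.6 CPM in wild-type mice (log2 0.44, adjusted p = 0.026, edgeR). Sult1a1, a sulfotransferase, rose by 1.13 and Gcnt2, a glycosyltransferase, had a value of -0.46. Along CD48, all 22 tested stem cell genes were higher in CD48-low cells, where 17.5% of all genes were higher, with a median of 2.14. Mllt3, a regulator of stem cell maintenance, was higher by 2.95, Mecom by 2.21, Mmrn1 by 3.61 and Txnip by 1.57.

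Of 22 tested neighbours of the Ifitm genes on chromosome 7, 0 were called between genotypes by edgeR, where 0.794% of all genes were called, and the median was -0.06. At an unadjusted p below 0.05, 1 was lower by edgeR, against 1202 of all 11592 genes in either direction. DESeq2 called 0 of 23. The smallest p-values belonged to Ric8a (-0.18), Sirt3 (-0.12), Rnh1 (-0.12) and Eps8l2 (-0.64). Along CD48, 4 of 19 were higher and 2 lower in CD48-low cells, near the 36.1% called over all genes. No test set the neighbours against the members. Cd151 and Bet1l were higher by 0.50 and 0.42, and Psmd13 and Taldo1 were lower, with values of -0.56 and -0.38.

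Cell cycle genes had 0 of 32 calls between genotypes by edgeR and by DESeq2, but all 32 values were positive, with a median of 0.24. At an unadjusted p below 0.05, 18 were higher by edgeR and 12 by DESeq2. Nusap1, Birc5, Ube2c and Tipin had the smallest p-values (adjusted p = 0.064 to 0.066, edgeR). Along CD48 all 32 were lower in CD48-low cells, where 1700 of all 9120 genes were lower, with a median of -1.29. Top2a, the replication-linked topoisomerase, had a value of -1.87.

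Genes most like each member were sought by the Pearson correlation of log2(CPM + 1), centred within each mouse, over 20 sums of mouse and CD48 quintile, among 2946 genes with a mean of at least 50 CPM. These sums share mice, depth and the CD48 order, so the values only describe the likeness of profiles. Ifitm3 was closest to Uba7, the activating enzyme of the ISG15 modifier, and to Esam, both at r = 0.98, followed by Selenow, Lst1 and Hacd4. The most opposite profiles were those of H2afy, BC035044 and Adgrg3, at -0.99 to -0.98. Ifitm1 was closest to Selenow (0.97), then Ftl1, Gstm1, Nceh1 and Rpl21, and most opposite to Ndufa4, Lsm8 and Pclaf. Among the genes closest to Ifitm2 were Cited2 (0.92), Sgms1, Rpl37a and Tspan4, and it was most opposite to Igfbp4, Paics and Mcm5. Between members the value was 0.95 for Ifitm1 with Ifitm3, 0.90 for Ifitm1 with Ifitm2 and 0.89 for Ifitm2 with Ifitm3.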

How the data were processed

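Single-cell RNA, antibody tag and hashtag libraries were made from 1 pool of LSK cells of 4 mice, with 2500 cells per mouse loaded. The deposited matrix holds UMI counts per gene, tag and barcode. Per the submitters' processing notes, the authors used Cell Ranger and Seurat 3.0.0 with genome build mm10, and per the file headers the matrix came from software version 3.0.2. The authors deposited the hashtag call of each barcode and the list of kept barcodes, and the rule behind that list is not given in the sources used here. Hashtags, and with them the labels, assigned cells to mice. Of 4108 barcodes, 3842 had a call of 1 mouse, and hashtag doublets stayed out. No further doublet caller was run.

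UMI counts were summed per mouse, or per mouse and group of cells, and tested with edgeR 4.0.16 (R 4.3.3; TMM scaling, low-count filter, robust quasi-likelihood fit, Benjamini-Hochberg adjustment over all genes tested, threshold 0.05). Gradients compared end quintiles. DESeq2 1.42.0 was an alternative. The fits were tested on simulated data, where they recovered most changed genes but made a larger share of false calls than the threshold allows, so the adjusted p-values may be too small. P-values between genotypes measure the spread between 2 mice per genotype, and those of gradients, gates and interactions the spread between sums from the same mice, with the mouse as block. In both, the spread of a gene is moderated by that of all genes tested, so the p-values also depend on how this is done. For Ifitm1 between genotypes, the adjusted p was 0.54 in the main edgeR fit and 0.015 in edgeR without the robust option. Thinning to 3000 UMIs left out 17 cells. The clusters came from scanpy 1.11.5 (Python 3.11.15) with 1500 variable genes, 30 components, 20 neighbours and resolution 0.5. Ifitm genes, the 32 genes of the cell cycle score and sex-linked genes were left out. Other cell cycle genes, such as Hells and Dtl, were not removed, so the clusters can still follow the cell cycle. Levels per mouse are raw CPM, while fitted fold changes use TMM scaling, so they differ a little.

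The members and gene lists were chosen with earlier results of these data known. Named list genes are the 4 with the smallest p in each comparison. Chosen after seeing the data were the rule of 3 distinct markers for cells of other types (a first rule on UMI sums took too many cells), the stricter naming of clusters, the 300-base motif window, the crossed median splits, the stem and interferon score interactions, and the alternatives for interactions, quintiles and gates. A gene whose profile was like that of Ifitm2 is not reported here.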

Additional observations from a re-analysis of the deposited data

Results flagged for a closer look

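The genotype difference of Ifitm1 changed between the CD48-low CD150-high gate and the CD48-high CD150-low gate, with an interaction of -0.57 on the log2 scale by a test of the difference itself in edgeR. The call was lost with DESeq2 (-0.57), with thinned cells (-0.42) and with gates from quintiles (-0.28). The levels were 1998 and 1564 CPM in Helios-deficient mice and 1766 and 1370 CPM in wild-type mice in the first gate, and 1397 and 1035 CPM in Helios-deficient mice and 773 and 688 CPM in wild-type mice in the second. The Ifitm1 difference along the interferon score changed with genotype as well, with an interaction of 0.38, from log2 ratios of 0.85 and 0.88 in Helios-deficient mice and 0.40 and 0.51 in wild-type mice. That call was lost with DESeq2 (0.38), without the robust option (0.38), without Helios-deficient mouse 1 (0.40), without Helios-deficient mouse 2 (0.35) and with thinned cells (0.29).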

How the results depend on the processing

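Of 501 alternative values of the members, 388 kept their direction and side of the threshold, 47 lost a call, 41 gained one and 25 changed sign. The cause of these changes was not tested. DESeq2 lost the calls of Ifitm2 along CD48 (0.15), Ifitm1 and Ifitm3 along CD150 (-0.13 and 0.17) and CD135 (0.13 each), Ifitm2 along the cell cycle (0.07), and the Ifitm1 interactions with the stem gate (-0.57) and the interferon score (0.38). It also lost Ifitm1 between genotypes in CD48 quintile 3 (0.61) and the CD48-high CD150-low gate (0.76) and Ifitm3 in the CD48-high CD150-high gate (0.31), gained Ifitm1 in the stem against the progenitor gate (0.78), turned the Ifitm3 stem score interaction (-0.00), and called 34 genes between genotypes and 1663 along CD48. Thinning gained Ifitm2 between genotypes (0.21) and Ifitm1 in the stem against the progenitor gate (1.04), and lost Ifitm1 and Ifitm3 along CD135 (0.17 and 0.14) and the Ifitm1 interactions (-0.42 and 0.29). It turned Ifitm1 along CD150 (0.01), Ifitm2 along CD41 (-0.10) and the interferon score (0.06) and the Ifitm2 stem gate interaction (0.10), and called 1571 genes along CD48. Without the robust option Ifitm1 passed between genotypes (0.60), in CD48 quintiles 1, 2, 4 and 5 (0.46, 0.43, 0.75 and 0.78) and in the gates CD48-low CD150-low (0.63) and CD48-high CD150-high (0.65), while its interferon score interaction (0.38) and Ifitm3 in the CD48-high CD150-high gate (0.31) did not, and 57 genes were called. Without a filter on low counts, Ifitm1 and Ifitm3 along CD135 (0.12 each) and Ifitm2 along the cell cycle (0.03) lost their calls and 296 genes were called between genotypes. Without the mouse block, calls were lost for Ifitm1 along CD48 (0.87), CD150 (-0.15), CD135 (0.14), CD41 (-0.40) and the interferon score (0.63), for Ifitm3 along CD150 (0.16) and CD135 (0.13) and for Ifitm2 along the cell cycle (0.12). Tag shares, which sum to a constant over the 4 tags, turned Ifitm1 along CD150 (0.76), CD135 (-0.93) and CD41 (0.38), Ifitm3 along CD135 (-0.45) and CD41 (0.38) and Ifitm2 along CD135 (-0.04), and gained Ifitm2 along CD150 (0.21) and CD41 (0.15) and Ifitm1 in the stem against the progenitor gate (0.75). Gates from quintiles gave Ifitm1 0.91 in the stem against the progenitor gate and -0.28 in its interaction, quintiles over all cells gave Ifitm1 0.12 along CD135, and tertiles gave an Ifitm3 CD48 interaction of 0.00. Equal cells per cluster called 47 genes and all single-mouse barcodes 144. With 1 mouse left out at a time, the genes called between genotypes ranged over 126 to 563. Ifitm1 ranged over 0.41 to 0.77 between genotypes, 0.81 to 1.04 along CD48, -0.20 to -0.10 along CD150, 0.10 to 0.17 along CD135, 0.67 to 0.90 in the stem against the progenitor gate, -0.32 to 0.15 in the stem score and 0.32 to 0.43 in the interferon score interaction. Its genotype difference ranged over 0.27 to 0.69, 0.19 to 0.67, 0.49 to 0.98 and 0.52 to 1.0 in CD48 quintiles 1, 2, 4 and 5, and over -0.02 to 0.33, 0.38 to 0.91 and 0.41 to 0.85 in the CD48-low CD150-high, CD48-low CD150-low and CD48-high CD150-high gates. Ifitm2 ranged over 0.07 to 0.23 between genotypes, 0.09 to 0.16 along CD135, -0.04 to 0.05 along the interferon score, 0.06 to 0.15 along the cell cycle, -0.20 to 0.00 in the CD48 and -0.13 to 0.01 in the stem score interaction, and between genotypes -0.03 to 0.14, 0.03 to 0.23 and 0.04 to 0.30 in CD48 quintiles 1, 2 and 3 and -0.08 to 0.09 in the stem gate. Ifitm3 ranged over 0.12 to 0.15 along CD135, -0.06 to 0.11 in the stem score and 0.12 to 0.37 in the interferon score interaction, 0.35 to 0.52 in CD48 quintile 5 and 0.22 to 0.39 in the CD48-high CD150-high gate. No paired analysis was possible because hashtag numbers do not pair mice of the genotypes. Depth is limited where groups are small: the gates held 50 to 153 cells per mouse, gates from quintiles as few as 12, and cluster 7 held 29 to 45.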
